A study of Mus musculus with 20 samples.

Results

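Rab proteins are the largest branch of the Ras-like small GTPases, and the genes described here are the protein-coding mouse genes whose symbol is Rab followed by a number and, where there is one, the letter or digit of a paralogue. The rule found 59 such genes among the 55487 rows of the count table. BV-2 is a microglial cell line that was immortalised from cultured neonatal mouse brain. Its cells were compared as young cultures of low passage, the control, and as aged cultures, which are the same line after long-term cultivation, and both were either left untreated or exposed for 6 hours to 100 ng/ml lipopolysaccharide (LPS), the bacterial ligand of Toll-like receptor 4. The 20 RNA-seq libraries form 4 groups of 5 (young untreated, aged untreated, young LPS and aged LPS). Each of 5 replicate numbers, taken here as batches, holds 1 culture of every group. All groups are 1 immortalised line, so the 5 cultures of a group are repeats of a cell line and not animals, and p-values measure the spread between such cultures. By the study's methods, aged cells were frozen after the long-term cultivation and used as aliquots. Whether stocks were aged separately is not stated, so p-values between the ages may not cover the spread between separately aged stocks.

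A Rab protein works as a switch on a membrane. Bound to GTP and anchored by its prenyl tail it recruits effectors such as tethers, motors and sorting factors, and bound to GDP it is taken off the membrane by a GDP dissociation inhibitor (GDI). Guanine nucleotide exchange factors (GEFs) turn it on at its own compartment and GTPase-activating proteins (GAPs), most of them with a TBC domain, turn it off, so that each compartment carries its own set. Rab1 and Rab2 act between the endoplasmic reticulum (ER) and the Golgi, Rab5 on early endosomes and phagosomes, Rab4 and Rab11 on recycling endosomes, Rab7 on late endosomes and lysosomes, and Rab8 and Rab10 on carriers bound for the plasma membrane. In phagocytes such as microglia the endosomal members are known for the uptake and maturation of phagosomes and for the traffic of Toll-like receptors.

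Total counts ranged from 11371508 to 16829292 per library. All 6 genes taken as a check of the LPS label, Tnf and Il1b among them, were higher with LPS at both ages by the test described below. Il1b, Il6 and Nos2 passed the filter on low counts only through their LPS cultures, so their p-values carry that selection. For Tnf, which exceeded 3 counts in all 20 libraries, every LPS culture lay above every untreated one. Of 12 markers of microglia and macrophages, 9 exceeded 3 counts in all 20 libraries, with Csf1r between 562 and 998 CPM (counts scaled to a common library size), but Sall1 had no count in any library and the homeostatic markers P2ry12 and Cx3cr1 did not exceed 1.87 and 1.73 CPM. Markers of other cell types were at or near 0, since the summed level of 5 astrocyte, 5 neuron, 5 oligodendrocyte and 6 endothelial or fibroblast markers was at most 1.78 CPM for any of these lists in any library. Snap25, Mog, Aqp4 and Cldn5 had no count in any library. RNA came from whole cultures, so fewer cells making a transcript and less of it per cell cannot be told apart.

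Which Rab genes BV-2 microglia express was read from TPM, which divide counts by gene length before scaling to a common total, and so allow genes to be compared. On this scale the most abundant members, averaged over all 20 libraries, were Rab7 at 439 TPM, Rab1b at 409 TPM, Rab1a at 370.4 TPM, Rab5c at 268 TPM, Rab10 at 225 TPM, Rab32 at 206 TPM and Rab31 at 161 TPM. In mean TPM Rab7 stood above Rab1b and Rab1a in every group, and Rab1a stood above Rab1b only in young LPS cultures. Without LPS, Rab7 (452 ± 13.0 TPM, SD, n = 5) and Rab1b (441 ± 5.71 TPM) were within their spread of each other in young cultures, and Rab1b exceeded Rab1a in every untreated library. With LPS, Rab1b (388 ± 16.7 TPM) and Rab1a (396 ± 29.1 TPM) were within their spread in young cultures, and Rab7 was at 437 ± 11.2 TPM. Rab7 and Rab1 are the housekeeping members of the late endosome and of the step from ER to Golgi. Rab32, which serves lysosome-related organelles, stands high in the order while its closest paralogue Rab38 had no count in any library.

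Of the 59 genes 41 had enough counts to be tested, and 18 did not: Rab3b, Rab3c, Rab9b, Rab17, Rab19, Rab25, Rab27a, Rab27b, Rab30, Rab33a, Rab34, Rab36, Rab37, Rab38, Rab39b, Rab40b, Rab42 and Rab44. Among these 18, 7 had no count in any library and 10 did not exceed 3 counts in any. Of the 11 Rab genes of lysosome-related organelles and secretory granules 5 did not exceed 3 counts in any library and 4 were tested, including neither Rab27a nor Rab27b, the granule Rabs of cytotoxic and secretory cells. All 8 Rab genes of early endosomes and phagosomes and all 4 of delivery to the plasma membrane were tested. By compartment, ER and Golgi members held 31.4% ± 0.759 (SD, n = 5) of the summed Rab TPM in young untreated cultures, early endosome and phagosome members 21.9% ± 0.792, and late endosome, lysosome and autophagosome members 19.3% ± 0.499.

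**Figure D1:**
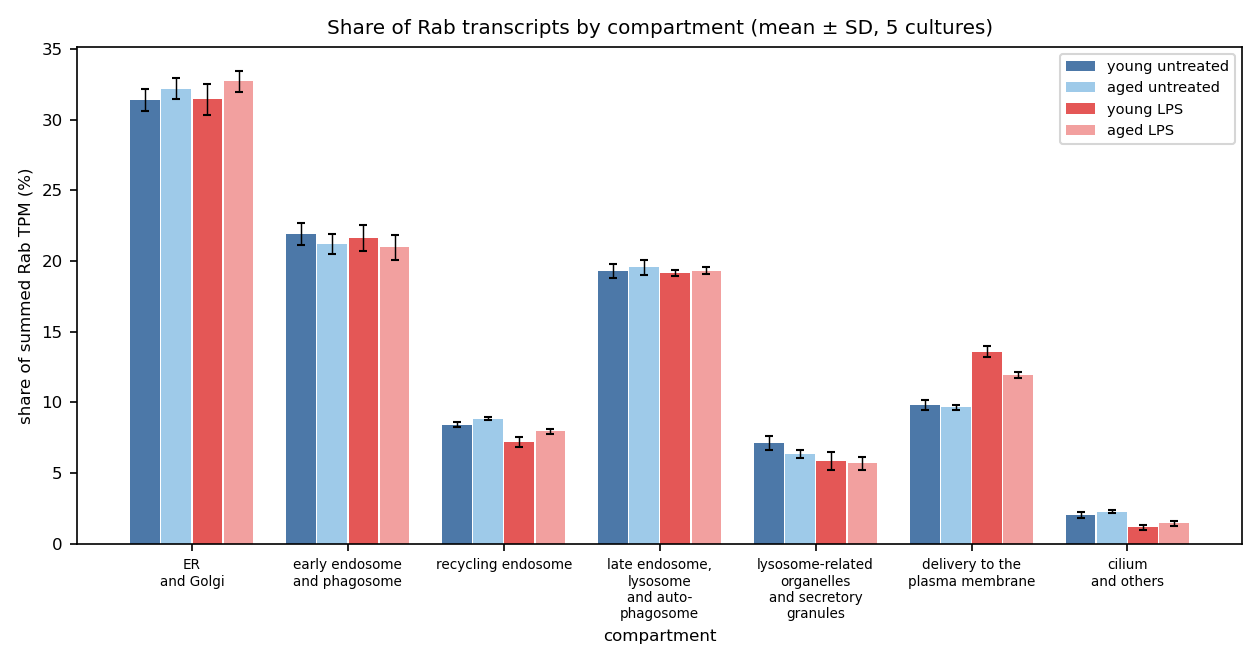
Share of the summed Rab TPM held by the Rab genes of each compartment (percent, y axis), for the 4 groups (bars: mean of 5 cultures, error bars: SD). The share of members that deliver to the plasma membrane is 9.83% in young untreated and 13.6% in young LPS cultures, and 9.65% and 12.0% in the aged ones, while that of recycling endosome members is 8.41% and 7.21% in the young and 8.84% and 7.95% in the aged cultures.

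LPS was tested against no treatment within each age to ask which Rab genes respond, and the share of Rab genes that responded was close to that of all genes. The test throughout was edgeR's quasi-likelihood F-test over the 12799 genes with enough counts, with TMM scaling of libraries and Benjamini-Hochberg adjustment, and genes with an adjusted p under 0.05 are called differentially expressed genes (DEGs). In young cultures 27 of 41 Rab genes were DEGs (17 higher, 10 lower with LPS), that is 65.9%, against 64.6% of all genes tested, of which 31.2% were higher and 33.5% lower. In aged cultures 24 of 41 were DEGs (16 higher, 8 lower), 58.5% against 54.4% of all genes, 27.5% higher and 26.9% lower. The median log2 fold change of the 41 members was 0.06 at both ages, and that of all genes was -0.01 in young and 0.00 in aged cultures. With library sizes alone in place of TMM, the median of all genes moved by -0.22 in young and -0.16 in aged cultures, and the split became 14 higher and 17 lower in young and 12 higher and 17 lower in aged cultures. With library sizes alone 68.8% of all genes were called in young and 59.8% in aged cultures. Changes below are on the TMM scale. Library sizes alone ended the calls of Rab2a, Rab5a and Rab7 in young cultures and of Rab1a, Rab2a, Rab5c and Rab7 in aged ones.

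**Figure D2:**
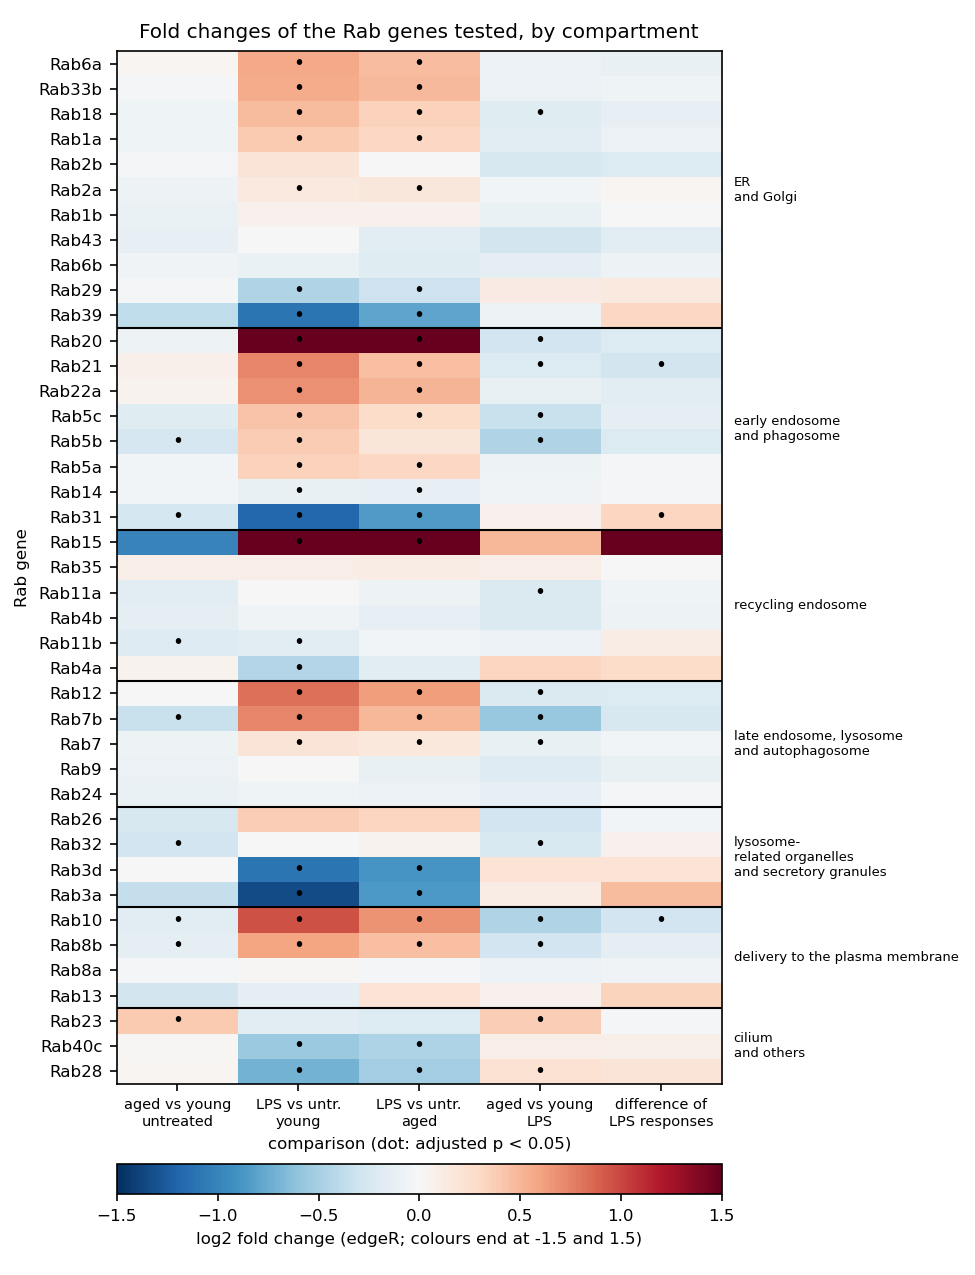
Log2 fold changes (colour) of the 41 Rab genes tested (rows, grouped by compartment) in the 5 comparisons (columns). A dot marks an adjusted p under 0.05, and colours end at -1.5 and 1.5. Rab20 is the early endosome and phagosome member with the strongest red in both LPS columns and Rab31 of the same compartment is blue there, and most dots in the column of aged against young LPS cultures are on blue cells. Rab15, at full colour, has few counts, and the weak changes of Rab2a and Rab7 with LPS in young cultures turn sign with library sizes alone.

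The strongest mover with adequate counts was Rab20, a Rab of early endosomes and phagosomes that acts in phagosome maturation in macrophages. Its level in the 5 young untreated cultures, in the order of batches, was 9.66, 8.25, 9.72, 9.96 and 8.12 CPM, and in young LPS cultures 47.8, 45.0, 47.5, 40.8 and 45.8 CPM. The aged untreated cultures had 8.86, 8.81, 9.53, 8.35 and 7.66 CPM and the aged LPS cultures 37.3, 36.8, 38.6, 35.6 and 37.9 CPM. All LPS cultures lie above all untreated ones, and the aged LPS cultures all lie below the young LPS cultures. Rab20 was 4.96-fold higher with LPS in young cultures (log2 fold change 2.31 ± 0.07 SE, edgeR adjusted p = 1.72e-17) and 4.30-fold higher in aged ones (2.10 ± 0.07, edgeR adjusted p = 1.35e-16). Rab20 shares 356 of its 1392 exonic bases with E230013L22Rik on the other strand, which had a median of 22.5 counts per library against 306.5 for Rab20.

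Rab10, which carries cargo such as Toll-like receptor 4 to the plasma membrane, was the next largest rise at both ages among members with a mean of at least 1 on the log2 CPM scale. It stood at 182, 185, 189, 176 and 169.6 CPM in young untreated cultures and at 341, 380.0, 359.7, 335 and 333 CPM in young LPS cultures. In aged cultures it stood at 165, 159.6, 157, 159 and 164 CPM without LPS and at 269, 262, 239, 249.7 and 260.5 CPM with it. The groups do not overlap in any of these comparisons, and every aged group lies below the young group of the same treatment. The log2 fold change with LPS was 0.96 ± 0.05 (SE) in young and 0.67 ± 0.05 in aged cultures (edgeR adjusted p = 2.26e-14 and 2.09e-11). A noncoding antisense gene, Rab10os, shares some exonic bases with Rab10, and how strand was treated in the counting is not given in the sources used here.

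Rab12, which directs receptors from recycling endosomes to lysosomes, rose as well. Young cultures held 35.0, 34.5, 32.8, 31.2 and 33.4 CPM without and 66.4, 62.5, 55.0, 55.4 and 57.8 CPM with LPS. Aged cultures held 30.3, 31.0, 36.0, 35.0 and 33.2 CPM without and 49.2, 51.1, 55.3, 54.4 and 45.4 CPM with LPS. Untreated cultures of both ages overlap and all LPS cultures lie above them. The log2 fold change was 0.83 ± 0.07 (SE, edgeR adjusted p = 2.40e-10) in young and 0.62 ± 0.07 (4.64e-08) in aged cultures.

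Among the members that fell with LPS, Rab31 changed most at high abundance. Rab31, also known as Rab22b, acts between the trans-Golgi network and endosomes and on phagosomes. Young untreated cultures had 269, 276, 249, 229 and 259 CPM and young LPS cultures 102, 120.3, 113, 113 and 118 CPM. Aged cultures had 216, 220.4, 219, 198 and 216 CPM without LPS and 126, 122, 107, 111 and 127 CPM with it. The aged untreated cultures lie below all young untreated ones, whereas under LPS the ages overlap. The log2 fold change with LPS was -1.18 ± 0.06 (SE, edgeR adjusted p = 7.40e-14) in young and -0.85 ± 0.06 (3.57e-11) in aged cultures.

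The other falls that met the rule for naming were Rab3d, a Rab of secretory granules, and Rab28, which is linked to the cilium. Rab3d stood at 12.3, 10.9, 11.3, 12.6 and 12.4 CPM in young untreated and at 6.32, 6.55, 5.66, 4.48 and 5.01 CPM in young LPS cultures. Aged cultures stood at 13.4, 11.2, 12.6, 9.56 and 13.0 CPM without and at 6.95, 5.69, 7.45, 4.96 and 7.09 CPM with LPS. The untreated ages overlap, and LPS was lower at both (log2 fold changes -1.09 and -0.89, edgeR adjusted p = 6.74e-08 and 1.66e-06). Rab28 stood at 26.1, 27.0, 26.1, 32.0 and 29.2 CPM in young untreated and at 17.4, 18.8, 15.0, 15.6 and 19.1 CPM in young LPS cultures. In aged cultures it stood at 32.0, 27.4, 27.7, 26.9 and 30.0 CPM without and at 21.1, 18.6, 19.2, 20.5 and 20.7 CPM with LPS. It too was lower with LPS at both ages (log2 fold changes -0.71 and -0.52, edgeR adjusted p = 4.70e-08 and 5.45e-06). For both genes every LPS culture lies below every untreated culture of the same age.

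**Figure D3:**
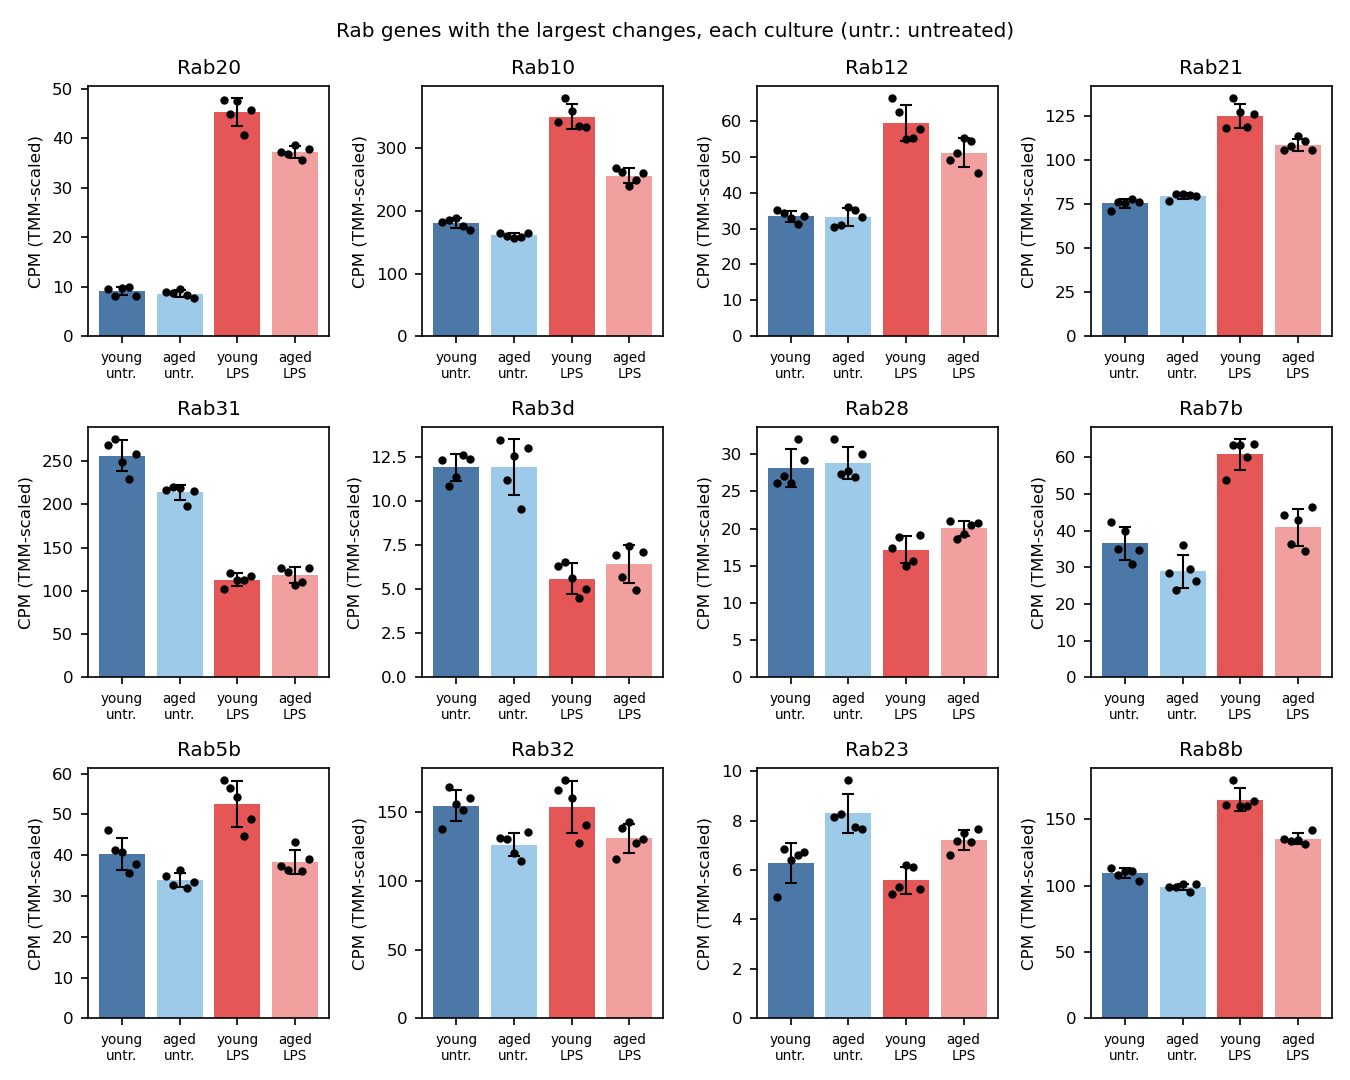
TMM-scaled CPM (y axis, from 0) of 12 Rab genes in each culture (points), with the mean (bar) and SD (error bar) of the 5 cultures of each group. Rab20 lies between 7.66 and 9.96 CPM in all untreated cultures and between 35.6 and 47.8 CPM with LPS. In Rab10, Rab8b, Rab7b and Rab5b the aged LPS cultures all lie below the young LPS cultures, and Rab31 and Rab3d are lower with LPS in both ages.

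To show the stretch of DNA that goes with the clearest movers, the 250 bases before the RefSeq start of 5 genes are printed (GRCm38.p6, all on the minus strand, 5′ to 3′ along the gene): Rab20 as the strongest rise (chr8:11478641-11478890), Rab10 (chr12:3309970-3310219), Rab21 (chr10:115315592-115315841) and Rab31 (chr17:65772753-65773002) as the genes whose LPS response differed with age, and Rab28 (chr5:41708180-41708429) as a fall. Capitals mark matches to any of 5 short motifs, which were searched on both strands of the 300-base windows from 250 bases before to 50 after the start: GGNNTTTCC of NF-kappaB, GAAANNGAA of interferon-responsive elements (ISRE), TGANTCA of AP-1, CACGTG (E-box) and GAGGAAGT of ETS factors such as PU.1.
Rab20: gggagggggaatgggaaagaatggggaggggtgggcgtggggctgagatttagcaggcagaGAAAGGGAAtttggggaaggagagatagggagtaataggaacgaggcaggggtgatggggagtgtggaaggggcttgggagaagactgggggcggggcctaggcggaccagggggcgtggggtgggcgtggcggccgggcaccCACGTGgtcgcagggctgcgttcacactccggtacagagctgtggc
Rab10: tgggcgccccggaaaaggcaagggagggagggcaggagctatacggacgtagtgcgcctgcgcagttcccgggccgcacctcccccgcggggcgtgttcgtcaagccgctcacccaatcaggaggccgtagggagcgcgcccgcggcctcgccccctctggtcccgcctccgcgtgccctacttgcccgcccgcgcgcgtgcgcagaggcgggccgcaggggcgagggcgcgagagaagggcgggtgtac
Rab21: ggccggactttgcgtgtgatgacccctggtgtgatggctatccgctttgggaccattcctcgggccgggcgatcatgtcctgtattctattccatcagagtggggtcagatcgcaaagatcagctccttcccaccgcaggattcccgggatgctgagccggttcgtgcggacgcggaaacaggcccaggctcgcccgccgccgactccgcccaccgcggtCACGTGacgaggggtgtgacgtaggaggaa
Rab31: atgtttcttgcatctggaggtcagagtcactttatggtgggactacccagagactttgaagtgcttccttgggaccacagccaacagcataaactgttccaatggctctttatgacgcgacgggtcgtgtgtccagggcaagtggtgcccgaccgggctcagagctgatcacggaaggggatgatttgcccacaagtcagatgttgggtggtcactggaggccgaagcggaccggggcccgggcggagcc
Rab28: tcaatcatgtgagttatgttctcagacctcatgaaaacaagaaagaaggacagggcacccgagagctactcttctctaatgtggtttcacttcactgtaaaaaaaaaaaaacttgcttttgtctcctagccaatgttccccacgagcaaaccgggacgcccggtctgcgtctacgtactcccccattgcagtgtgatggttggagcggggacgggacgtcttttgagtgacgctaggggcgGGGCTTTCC

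In Rab20 the capitals mark 1 ISRE match beginning 189 bases and 1 E-box beginning 46 bases before the start. Rab21 has 1 E-box and Rab28 1 NF-kappaB match just before the start, and the windows of Rab10 and Rab31 hold none of the 5 motifs. In the GRCm38 annotation of the count table Rab20 spans chr8:11453518-11478710, so its gene model reaches into the printed window, Rab10 spans chr12:3247428-3309969 and Rab31 chr17:65651729-65772752. The table holds a window for 36 of the 41 genes tested, the others being Rab2a, Rab4a, Rab7b, Rab18 and Rab26. The NF-kappaB letters were found in 3 of these 36 genes (Rab9, Rab15 and Rab28), against 5.82% of all 32851 windows, and the ISRE letters in Rab20 alone, against 8.56%. AP-1 letters were found in Rab15 alone (7.81% of all windows), the E-box in Rab5a, Rab20, Rab21, Rab23 and Rab24 (7.15%) and the ETS letters in Rab2b and Rab32 (3.20%). Of the 14 genes with a window that rose with LPS in young cultures, 1 holds the NF-kappaB letters and 3 hold the E-box, and of the 9 that fell 1 holds the NF-kappaB letters. The percentages are shares of windows, whereas Rab genes are counted as genes, and the 48 Rab genes with a window have 60 windows. Median GC was 63.3% in the windows of tested Rab genes and 52.7% in all windows, so the shares are not matched for base content. A match is a description of letters only.

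Outside the naming rule, because their mean level is low, 3 further genes were singled out after their values were seen. Rab15, a Rab of recycling endosomes, had 2 to 5 counts in young untreated and 1 to 2 counts in aged untreated cultures, and 9 to 30 and 23 to 41 counts with LPS. Its level with LPS was 1.59 ± 0.569 CPM (SD, n = 5) in young and 2.29 ± 0.564 CPM in aged cultures. Against the floor of 3 counts per library, Rab15 was at least 12.3-fold higher with LPS in aged cultures. It was a DEG at both ages (edgeR adjusted p = 5.60e-08 in young, 4.09e-10 in aged). Rab15 passed the filter on low counts only through its LPS cultures, so these p-values carry that selection and are no support for the rise. Rab3a, the Rab of synaptic vesicles and other regulated secretion, fell from 2.16 ± 0.208 to 0.841 ± 0.223 CPM in young and from 1.68 ± 0.268 to 0.924 ± 0.141 CPM in aged cultures (edgeR adjusted p = 9.72e-07 and 3.29e-04), and it shares 29 exonic bases with the more highly counted Mpv17l2 on the other strand. Rab39, which acts in the phagosomal and Golgi pathways, fell from 2.77 ± 0.415 to 1.30 ± 0.429 CPM and from 2.12 ± 0.510 to 1.23 ± 0.414 CPM (edgeR adjusted p = 3.29e-04 and 8.82e-03), and in aged cultures its groups overlap.

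By compartment, early endosomes and phagosomes held the largest rise at both ages (Rab20) and, in young cultures, the largest fall (Rab31) among members whose mean log2 CPM reached 1, while in aged cultures the fall of Rab3d was slightly larger than that of Rab31. All 8 of its members were DEGs with LPS in young cultures: Rab20, Rab21, Rab22a, Rab5a, Rab5b and Rab5c rose, and Rab31 and Rab14 fell. Of all genes tested 64.6% were DEGs with LPS in young and 54.4% in aged cultures. In aged cultures the other 7 were DEGs in the same directions, while Rab5b had a log2 fold change of 0.18 there (edgeR adjusted p = 0.0552, and 0.0152 with the replicate block, which fits the batch number as a term). The 3 Rab5 genes, which run the fusion of early endosomes, rose by 0.34 (Rab5a), 0.38 (Rab5b) and 0.43 (Rab5c) in young cultures on the log2 scale, with SEs of 0.06 to 0.08, and Rab5a and Rab5c by 0.31 and 0.28 in aged ones. The LPS and untreated cultures overlap for Rab5b and Rab5c at both ages but not for Rab5a. Rab21, known for the endocytosis of integrins, rose by 0.73 in young and 0.45 in aged cultures. Rab14, which moves between Golgi and endosomes, fell by 0.11 and 0.13, less than the shift from the choice of scaling.

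With TMM, the DEGs among members of delivery to the plasma membrane and of the late endosome were all higher with LPS. Of all genes tested 31.2% were higher with LPS in young and 27.5% in aged cultures. In both ages 2 of 4 plasma membrane members rose, Rab10 and Rab8b. Rab8b rose by 0.59 and 0.45 on the log2 scale (edgeR adjusted p = 1.95e-11 and 3.89e-09), whereas its paralogue Rab8a had log2 fold changes of 0.02 ± 0.05 (SE) and -0.03 ± 0.05 and was not a DEG, but with library sizes alone Rab8a was lower at both ages (-0.20 and -0.19). In both ages 3 of 5 late endosome, lysosome and autophagosome members rose. Beside Rab12 these were Rab7b, which takes Toll-like receptors to lysosomes in macrophages, by 0.74 in young and, with overlapping groups, 0.50 in aged cultures, and Rab7, by 0.20 and 0.16. Library sizes alone gave -0.02 for Rab7 in young cultures, so its direction there depends on the scaling. On that scale Rab24 was lower at both ages (-0.28 and -0.25) and Rab9 in aged cultures (-0.27), though neither was a DEG with TMM. Rab24 shares 1258 exonic bases with Prelid1 on the other strand.

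In the ER and Golgi, 5 of 11 members rose and 2 fell at both ages. Of all genes tested 31.2% rose and 33.5% fell in young cultures, and 27.5% and 26.9% in aged ones. Rab6a, a Rab of retrograde transport within the Golgi, rose by 0.57 in young and 0.46 in aged cultures on the log2 scale, Rab33b, which serves the Golgi and autophagosomes, by 0.55 and 0.48, Rab18 of the ER and lipid droplets by 0.47 and 0.34, and Rab1a by 0.40 and 0.30. Rab2a rose by 0.14 and 0.17, and in young cultures its sign turns with library sizes alone (-0.08). The call of Rab2a in young cultures was also lost without young LPS replicate 1 or 2 or young untreated replicate 3 or 4, with an adjusted p of up to 0.0839. Rab29, the Golgi member that recruits the kinase LRRK2, fell by 0.46 and 0.31 beside Rab39. Rab1b had log2 fold changes of 0.06 at both ages and was not a DEG, but with library sizes alone it was called lower (-0.158 in young and -0.098 in aged cultures). Rab6a shares exonic bases with Mrpl48 on the other strand and Rab43, which was not a DEG, most of its exons with Gm45140 on its own strand, so their counts are uncertain.

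Among the members of recycling endosomes and of the group of the cilium and others, those called with LPS were lower, apart from Rab15. In young cultures Rab4a and Rab11b fell by 0.44 and 0.15 on the log2 scale, and in aged cultures neither was a DEG (-0.17 and -0.05), but the difference between the ages did not pass the test for either gene. Rab11a, the main recycling Rab, had log2 fold changes of -0.01 and -0.07 and Rab35 of 0.10 and 0.11. With library sizes alone Rab11a was called lower in young (-0.232) and aged cultures (-0.235), and Rab11b in aged ones too (-0.207). With the replicate block Rab35 passed the threshold at both ages (edgeR adjusted p = 0.0408 and 0.0354), and with library sizes alone its sign turned (-0.12 and -0.05). Of the cilium and other members Rab40c, an adaptor of ubiquitin ligases, fell beside Rab28, by 0.55 in young and 0.47 in aged cultures. Rab23 was not a DEG with LPS at either age. Rab32, the abundant member of the lysosome-related organelles, had log2 fold changes of -0.01 and 0.05.

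Ratios of close paralogues within a library need no scaling between libraries, but a ratio does not show which member of the pair moved. Rab22a, which sorts cargo in early endosomes, and Rab31 are each other's closest paralogues, and 1 rose while the other fell. Rab22a stood at 79.3, 77.6, 78.2, 79.7 and 81.5 CPM in young untreated and 116, 136, 119.7, 135 and 131 CPM in young LPS cultures, and at 90.3, 81.4, 75.9, 79.2 and 85.5 CPM in aged untreated and 128, 108, 116, 115 and 121 CPM in aged LPS cultures. It rose by 0.69 ± 0.06 (SE) and 0.51 ± 0.06 on the log2 scale (edgeR adjusted p = 3.48e-10 and 6.51e-08). The ratio of Rab22a to Rab31 in TPM was 0.149 to 0.184 in young untreated, 0.183 to 0.221 in aged untreated, 0.560 to 0.630 in young LPS and 0.467 to 0.576 in aged LPS cultures. Rab31 thus stayed the more abundant of the pair in all 20 cultures, and the ratio was higher in every LPS culture than in any untreated one.

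Rab8b and Rab8a were at similar levels per length without LPS and drew apart with it. The ratio of Rab8b to Rab8a in TPM was 1.02 to 1.17 in young untreated and 0.942 to 1.12 in aged untreated cultures, against 1.54 to 1.77 in young LPS and 1.38 to 1.54 in aged LPS cultures. The ratio of Rab7 to Rab7b ran the other way with LPS in young cultures, from 13.6 to 18.3 without and 10.3 to 11.9 with it. In aged LPS cultures it was 13.7 to 16.8, which overlaps the aged untreated range of 15.7 to 22.6. Rab1a and Rab1b came to near equal levels with LPS, at ratios of 0.957 to 1.08 in young and 0.927 to 1.07 in aged cultures against 0.764 to 0.877 and 0.778 to 0.867 without it. Rab11a to Rab11b showed overlapping ranges in all 4 groups, between 2.21 and 3.40.

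**Figure D4:**
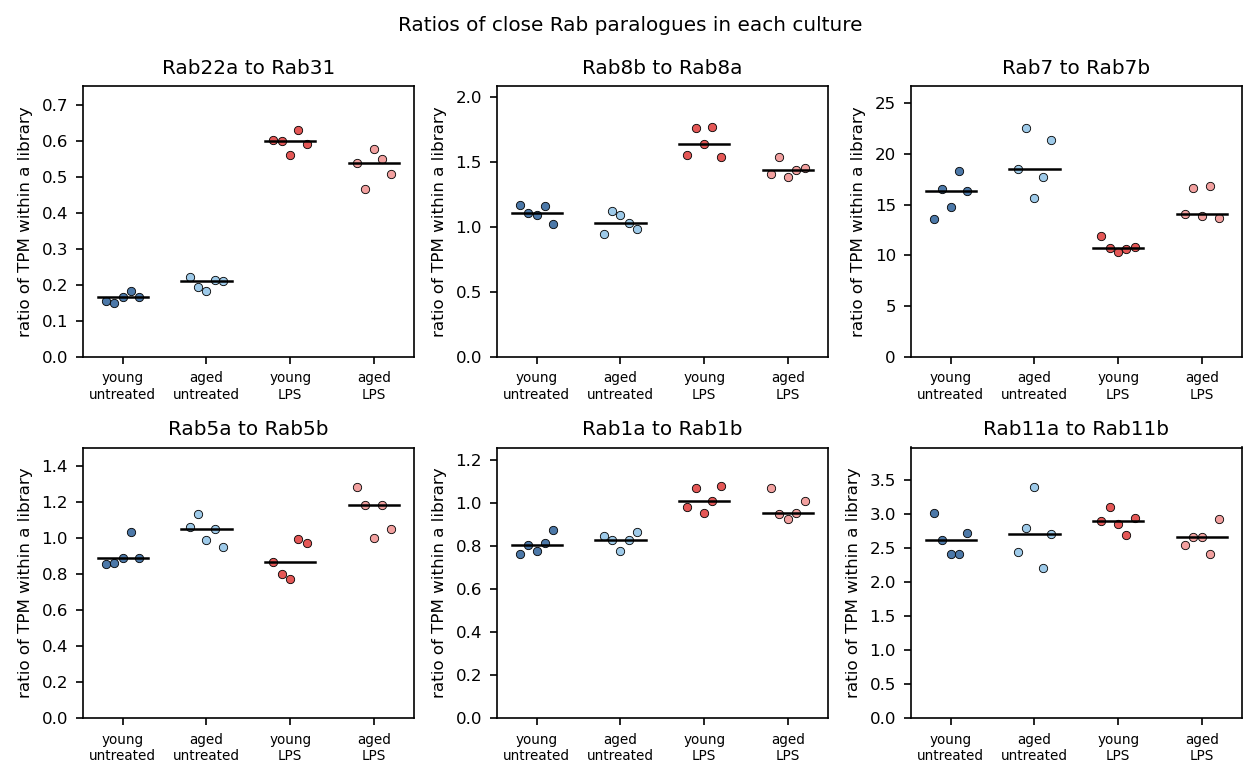
Ratio of the TPM of close Rab paralogues within each library (y axis, from 0), with 5 cultures per group (points) and their median (line). The ratio of Rab22a to Rab31 is at most 0.221 without LPS and at least 0.467 with it, that of Rab8b to Rab8a is higher in all LPS cultures than in untreated ones, and that of Rab11a to Rab11b overlaps in all groups.

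Aged and young cultures were compared without LPS to ask which Rab genes differed between these untreated cultures. Of 41 Rab genes 8 were DEGs, 19.5% against 11.5% of all genes tested, with 1 higher (all genes 3.71%) and 7 lower (all genes 7.81%) in aged cultures. The median log2 fold change of the members was -0.08 and that of all genes -0.01. The aged level of these genes lay between 0.792 and 1.32 times the young level, and the count fell to 3, 4 or 5 when certain libraries were left out: 3 without aged untreated replicate 4, 4 without young untreated replicate 2 or 3, and 5 without aged untreated replicate 2 or young untreated replicate 1. In those fits 7.40% to 8.80% of all genes were called. With no filter on low counts 4 of 52 Rab genes were DEGs (Rab7b, Rab23, Rab31 and Rab32), where 4.46% of all genes were.

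The member that was higher in aged cultures was Rab23, a negative regulator of Hedgehog signalling that traffics to the cilium. Young untreated cultures held 4.90, 6.84, 6.40, 6.59 and 6.72 CPM and aged untreated cultures 8.15, 8.28, 9.65, 7.75 and 7.66 CPM. With LPS young cultures held 5.04, 5.31, 6.21, 6.12 and 5.23 CPM and aged cultures 6.60, 7.17, 7.52, 7.12 and 7.67 CPM. At either treatment all aged cultures lie above all young ones. The log2 fold change of aged against young was 0.40 ± 0.10 (SE, edgeR adjusted p = 0.0115) without and 0.37 ± 0.11 (0.0118) with LPS. LPS itself gave log2 fold changes of -0.17 in young and -0.20 in aged cultures, and neither was a DEG.

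The 3 largest falls in aged untreated cultures were Rab7b, Rab32 and Rab31. Rab7b stood at 42.4, 35.0, 39.8, 30.8 and 34.7 CPM in young and 28.3, 23.9, 36.1, 29.7 and 26.4 CPM in aged untreated cultures. These groups overlap (log2 fold change -0.34 ± 0.10 SE, edgeR adjusted p = 0.0370). Aged was lower than young in 5 of 5 batches, but pairing by batch is weak across the ages. The call was lost without any 1 of 7 libraries, namely young untreated replicates 1, 2 and 3 and aged untreated replicates 1, 2, 4 and 5, with an adjusted p of up to 0.110. Rab32, which serves lysosome-related organelles and in macrophages the delivery of hydrolases to phagosomes, stood at 138, 168, 156, 151 and 159.8 CPM in young and 131, 130.1, 120.4, 114 and 135 CPM in aged untreated cultures, without overlap (log2 fold change -0.29 ± 0.08 SE, edgeR adjusted p = 0.0160). Without aged untreated replicate 4 or young untreated replicate 2 it was not called, with an adjusted p of up to 0.0546. Rab31 was lower by 0.26 ± 0.06 (SE, edgeR adjusted p = 5.18e-03), and this call held without any 1 library.

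The remaining 4 members lower in aged untreated cultures were Rab5b, Rab11b, Rab10 and Rab8b, with log2 fold changes of -0.25, -0.19, -0.16 and -0.14. For Rab11b, Rab10 and Rab8b all aged cultures lay below all young ones, whereas for Rab5b the groups overlap. Rab11b kept its call without any 1 library, whereas that of Rab5b was lost in 7, that of Rab8b in 4 and that of Rab10 in 3 such fits, with an adjusted p of up to 0.121, 0.0772 and 0.0643. The fits without aged untreated replicate 4 lost all 3, and further losses came without young untreated replicates 1, 2 or 3 or aged untreated replicates 1, 2 or 5. With the replicate block Rab1b, of the ER and Golgi, was a DEG too (log2 fold change -0.10, edgeR adjusted p = 0.0434 with the block and 0.0927 without it), and the count was 9. With the block 17.2% of all genes tested were called. The 8 DEGs without the block belong to 6 of the 7 compartments, and Rab1b adds the ER and Golgi.

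Under LPS the aged and young cultures differed at more Rab genes. Of 41 members 14 were DEGs, 34.1% against 29.0% of all genes tested, with 2 higher (all genes 14.0%) and 12 lower (all genes 15.0%) in aged LPS cultures. The median log2 fold change of the members was -0.11 and that of all genes 0.01. With library sizes alone 11 of 41 were DEGs, 4 higher and 7 lower, a smaller share than the 35.3% of all genes called at that setting. With the replicate block 18 of 41 were, 3 higher and 15 lower, where 33.4% of all genes were called. The block added Rab1a, Rab1b, Rab9 and, as higher, Rab4a (edgeR adjusted p = 0.0146, 0.0261, 0.0275 and 0.0406). The induced genes of the LPS check were lower in aged LPS cultures as well, all 6 of them, with Tnf at 401 to 576 CPM in aged against 614 to 1124 CPM in young LPS cultures. Their part in the Rab differences was not tested.

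Rab7b again showed the largest fall. It stood at 53.8, 63.3, 63.2, 60.0 and 63.7 CPM in young LPS cultures and at 44.2, 36.5, 42.9, 34.5 and 46.4 CPM in aged LPS cultures, without overlap (log2 fold change -0.57 ± 0.10 SE, edgeR adjusted p = 1.77e-04). Rab5b stood at 58.5, 56.6, 54.3, 44.8 and 48.9 CPM in young and 37.3, 36.3, 43.2, 36.2 and 39.0 CPM in aged LPS cultures, also without overlap (-0.45 ± 0.08, edgeR adjusted p = 1.16e-04). Its paralogues Rab5c and Rab5a had log2 fold changes of -0.34 (edgeR adjusted p = 3.02e-03, groups overlapping) and -0.08 (0.372). Rab10, with the values given above, was lower by 0.45 ± 0.04 (SE, edgeR adjusted p = 2.74e-07).

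The other members lower in aged LPS cultures were Rab8b (-0.28), Rab20 (-0.28), Rab32 (-0.23), Rab11a (-0.22), Rab12 (-0.22), Rab21 (-0.20), Rab18 (-0.19) and Rab7 (-0.12). For Rab8b, Rab20, Rab21, Rab18 and Rab7 the 5 aged LPS cultures all lay below the 5 young ones, and Rab8b ranged from 132 to 142 CPM in aged against 159.9 to 179.5 CPM in young LPS cultures. The calls of Rab32, Rab11a and Rab7 were each lost in 5 and that of Rab12 in 2 of the fits without 1 library, with an adjusted p of up to 0.0999, 0.0653, 0.0877 and 0.0536. These fits left out, for Rab32, aged LPS replicates 1 or 4 or young LPS replicates 1, 2 or 3, for Rab11a aged LPS replicates 1, 2 or 4 or young LPS replicates 3 or 5, for Rab7 aged LPS replicates 2, 3 or 4 or young LPS replicates 2 or 5, and for Rab12 aged LPS replicate 5 or young LPS replicate 1. Library sizes alone left Rab32, Rab11a, Rab12, Rab18 and Rab7 without a call, all still lower in aged cultures.

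Higher in aged LPS cultures beside Rab23 was Rab28, with 18.6 to 21.1 CPM against 15.0 to 19.1 CPM in young LPS cultures. The groups overlap and the difference of 0.22 ± 0.08 (SE) on the log2 scale passed narrowly (edgeR adjusted p = 0.0407). It was lost in 6 fits without 1 library, those without aged LPS replicates 1, 4 or 5 or young LPS replicates 1, 3 or 4, with an adjusted p of up to 0.130. It was also lost with DESeq2 (adjusted p = 0.0611), with DESeq2 and the replicate block, with DESeq2 size factors in edgeR, with no filter on low counts and with only the groups compared.

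Whether the LPS response itself differed with age was tested as the difference of the responses, which uses all 4 groups. It passed for 3 of 41 Rab genes, 7.32% against 6.39% of all genes tested, with 1 above zero (all genes 4.12%) and 2 below (all genes 2.27%). The rise of Rab10 was smaller in aged cultures by 0.29 ± 0.06 on the log2 scale (SE, edgeR adjusted p = 7.83e-03) and that of Rab21 by 0.28 ± 0.06 (7.44e-03). The fall of Rab31 was smaller in aged cultures by 0.33 ± 0.08 (SE, edgeR adjusted p = 0.0193). Its untreated level was lower in aged cultures, while under LPS the ages differed by 0.07 and were not called. All 3 differences were called in each fit that left out 1 library. They had the same sign in 5 of 5 batches, though pairing by batch is weak across the ages. With no filter on low counts Rab21 was not called.

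Rab21 held 70.8, 75.9, 75.6, 77.9 and 76.2 CPM in young untreated and 118, 135, 127, 118 and 126 CPM in young LPS cultures. In aged cultures it held 76.5, 80.4, 80.4, 80.2 and 79.3 CPM without and 105, 108, 114, 110.5 and 105 CPM with LPS. The aged cultures lie within or above the young range without LPS and all below it with LPS. For Rab20 the difference of the responses was -0.20 and for Rab12 -0.21, and neither passed the test.

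**Figure D5:**
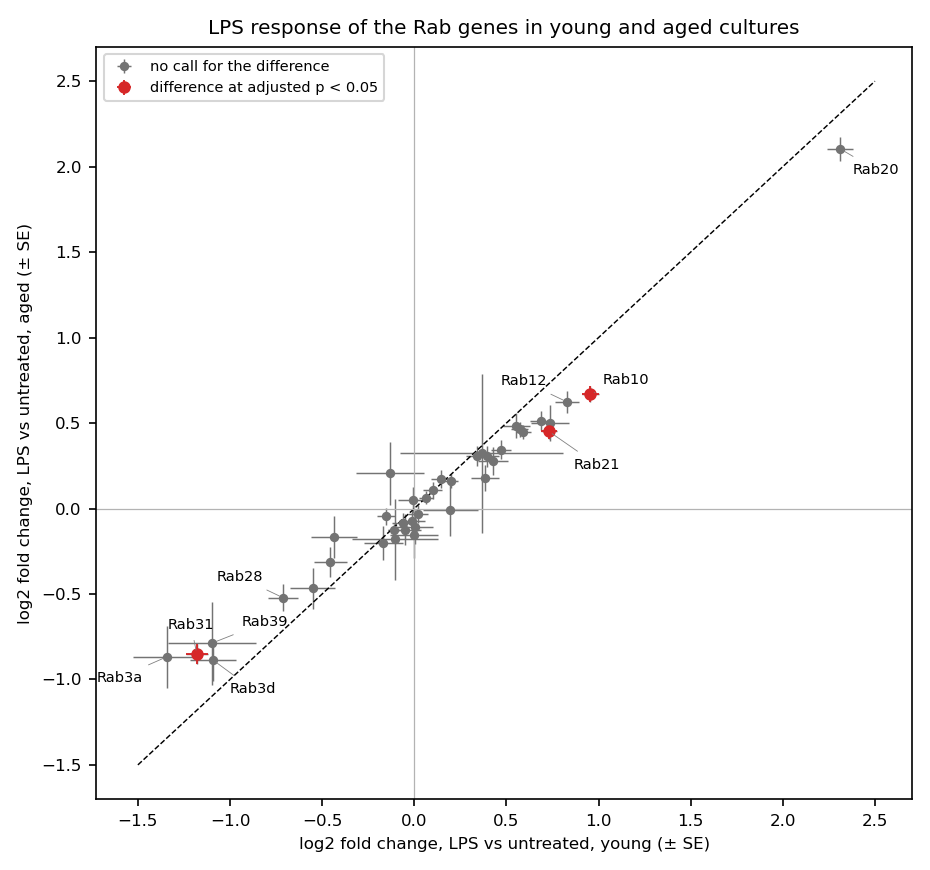
Log2 fold change with LPS in aged cultures (y axis) against that in young cultures (x axis) for 40 Rab genes tested (Rab15, at or below 3 counts in aged untreated cultures, is left out), with SE bars and the line of equal response (dashed). Red points are Rab10, Rab21 and Rab31, whose responses differed with age at an adjusted p under 0.05. Rab10 is at 0.96 in young and 0.67 in aged cultures, and the comparisons share no samples.

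The genes that load, switch and read Rab proteins moved in both directions with LPS. Of 8 genes for prenylation, escort and GDI, 5 rose and 2 fell in young cultures, where 64.6% of all genes were called, and 4 rose and 1 fell in aged ones, where 54.4% were. Rabggtb, a subunit of the enzyme that prenylates Rab proteins, rose by 0.43 and 0.37 on the log2 scale, while the escort protein gene Chml fell by 0.61 and 0.28. Gdi2 had a fall of 0.10 in young cultures, less than the shift of the scaling. In aged against young LPS cultures Chml was higher by 0.35.

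Among 50 GEF genes tested 18 rose and 19 fell in young cultures (all genes 31.2% higher and 33.5% lower) and 12 rose and 17 fell in aged ones (27.5% and 26.9%). Rabgef1, the exchange factor of Rab5 and Rab21, rose by 0.92 in young and 0.76 in aged cultures, with the next largest rises in Dennd6b in young (0.64) and St5 in aged cultures (0.62). Rab3il1, an exchange factor of Rab8, fell from between 56.1 and 70.6 CPM to between 8.05 and 12.3 CPM in young and from between 47.1 and 71.1 CPM to between 12.4 and 21.0 CPM in aged cultures (log2 fold changes -2.68 and -1.72, edgeR adjusted p = 4.26e-14 and 5.13e-11). Its fall was smaller in aged cultures by 0.96 (edgeR adjusted p = 2.02e-03), and the difference for Dennd6b went the other way (-0.82, edgeR adjusted p = 0.0276). In aged against young cultures 1 of the 50 was higher and 4 were lower without LPS (all genes 3.71% and 7.81%), and 8 were higher and 7 lower with it (14.0% and 15.0%). Dennd3, an exchange factor of Rab12, fell by 2.33 and 1.62, at levels of at most 6.73 CPM.

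Of 36 genes tested for proteins with a TBC domain 10 rose and 21 fell with LPS in young cultures, where 31.2% of all genes rose and 33.5% fell. Their median log2 fold change was -0.29 against -0.01 for all genes. In aged cultures 10 rose and 15 fell (all genes 27.5% and 26.9%), with a median of -0.13 against 0.00. The difference of the responses passed for 6 of them (all genes 6.39%), 5 above zero and 1, Tbc1d13, below (-0.31). Tbc1d4, the GAP of Rab10 known as AS160, fell from between 91.9 and 102 CPM to between 17.1 and 27.4 CPM in young cultures (log2 fold change -2.08, edgeR adjusted p = 1.48e-15), and its fall was smaller in aged cultures by 0.85 (edgeR adjusted p = 1.41e-04). In aged LPS cultures Tbc1d4 was at 36.2 to 44.3 CPM, all above the young ones (log2 fold change 0.80). Tbc1d8 fell by 2.80 in young and 1.87 in aged cultures (difference 0.93, edgeR adjusted p = 0.0103), and Tbc1d30 had log2 fold changes of -1.65 in young and -1.34 in aged ones. Tbc1d9 rose by 1.44 and 1.34 and Tbc1d1, the paralogue of Tbc1d4, by 0.80 and 0.82. Under LPS 6 of the 36 were higher and 4 lower in aged cultures (all genes 14.0% and 15.0%): Tbc1d13 was lower there (-0.51), as was Tbc1d9 (-0.34), and Tbc1d31 was higher (0.51). Without LPS 8 of the 36 were DEGs between the ages, all lower in aged cultures (all genes 11.5% called and 7.81% lower), led by Evi5l (-0.82) and Tbc1d8 (-0.50). The level of Evi5l was low, at 0.934 to 1.36 CPM in aged and 1.86 to 2.29 CPM in young untreated cultures.

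Of 50 effector genes tested 19 rose and 16 fell in young and 18 rose and 9 fell in aged cultures (all genes 31.2% and 33.5% in young, 27.5% and 26.9% in aged). The difference of the responses passed for 7 (all genes 6.39%), of which 3 were above zero. Rab11fip1, an effector of Rab11 on recycling endosomes, rose from between 13.1 and 18.7 CPM to between 130.0 and 195 CPM in young and from between 13.5 and 16.6 CPM to between 104 and 117 CPM in aged cultures (log2 fold changes 3.46 and 2.88, edgeR adjusted p = 1.72e-17 and 4.49e-16). Its rise was smaller in aged cultures by 0.58 (edgeR adjusted p = 0.0175), as was that of Rilpl1, which binds phosphorylated Rab8 and Rab10 (by 1.68, edgeR adjusted p = 0.0392). Rilpl1 had log2 fold changes of 2.78 ± 0.32 (SE) in young and 1.10 ± 0.35 in aged cultures. It ranged from 3.05 to 13.45 CPM in aged LPS cultures. That range overlaps both the 2.33 to 3.65 CPM of aged untreated and the 11.64 to 34.38 CPM of young LPS cultures. Micall2, the next rise after Rab11fip1 in aged cultures, had log2 fold changes of 1.70 and 1.47. Mical1, an actin oxidase bound by several Rab proteins, fell as well (log2 fold changes -3.01 and -1.91), and its fall was smaller in aged cultures by 1.10 (edgeR adjusted p = 6.29e-03). Appl2, which binds Rab5, had log2 fold changes of -1.71 in young and -1.26 in aged cultures (difference 0.45, edgeR adjusted p = 0.0305). Mlph, which links Rab27 to myosin, had -2.04 and -1.01, at levels of at most 2.97 CPM. Between the ages 1 effector gene was higher and 2 were lower without LPS (all genes 3.71% and 7.81%), and 5 were higher and 8 lower with it (14.0% and 15.0%). Without LPS, Mlph was higher in aged cultures by 0.84 and Rab11fip5 and Vps39 were lower (-0.31 and -0.15), and under LPS Mlph and Mical1 were higher (1.87 and 1.40) and Rilpl1 and Rab11fip1 lower (-1.79 and -0.52).

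Of the enzymes that phosphorylate or dephosphorylate Rab proteins, Lrrk1 fell with LPS by 0.76 in young and 0.60 in aged cultures, and Lrrk2 was not a DEG in any of the 5 comparisons. Ppm1h, the phosphatase of Rab8 and Rab10, was lower in aged untreated cultures (-0.22, edgeR adjusted p = 0.0384). For GEF genes in untreated cultures Rab3ip was higher (0.27) and Rin2 and Dennd1a were lower in aged cultures (-0.37 and -0.31), and under LPS the largest differences were higher Dennd3 and Rab3il1 (0.95 and 0.86) and lower Dennd6b and Rin2 (-0.62 and -0.59).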

How the data were processed

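RNA was measured in 20 BV-2 cultures, 5 in each of 4 groups, with stranded poly(A) libraries sequenced on an Illumina instrument. The authors aligned reads to GRCm38 with STAR 2.6.1d and counted them per gene with featureCounts 1.5.1, after quality control with FastQC 0.11.8 (versions per the submitters' processing notes), and they deposited raw counts that are not normalized. Whether counting used strand, shared or multimapping reads is not given in the sources used here.

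Genes were named from GENCODE. After filterByExpr 12799 genes were left. They were fitted in edgeR 4.0.16 (R 4.3.3) over all 20 libraries, with group as the only factor and TMM scaling. A prior count of 2 was used for log2 CPM only, and the fit kept edgeR's default. The SE of a log2 fold change is its size divided by the square root of the F statistic. CPM are TMM-scaled, and TPM use gene length and library totals without TMM. Scripts were tested on simulated data. The members and gene lists were chosen with earlier results of these data known. Cultures named singly were those of the 3 largest rises and falls among DEGs per comparison, of genes whose mean log2 CPM reached 1, and of genes set beside a paralogue. For each list of pathway genes the 2 largest per direction were named, except where a gene is not reported here. Alternatives were DESeq2 1.42.0, other scalings and filters, only the groups compared, and each library left out.

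Replicate numbers in the labels were taken as batch numbers that pair the cultures of the 4 groups. Deviations from the group means of same-numbered cultures had a mean correlation of 0.146 over genes (range -0.214 to 0.394, with 19 of 30 pairs over 0.1). Between untreated and LPS cultures of the same age the correlations were 0.122 to 0.394. Between cultures of different age they were -0.214 to 0.275, and negative in every pair of replicate 1, so pairing across the ages is weak. Replicates of a group differed by more than sampling noise (chi-square per degree of freedom 2.42 to 26.8 over 40 pairs). Totals between 11371508 and 16829292 counts set the precision, and the floor of 3 counts covers counting error only. Comparisons that share a group share its 5 libraries, and their values are given side by side. Promoter windows are RefSeq sequences of GRCm38.p6.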

Additional observations from a re-analysis of the deposited data

Results flagged for a closer look

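The LPS response differed between the ages by a test of the difference itself for Rab10 (-0.2862 on the log2 scale, aged minus young), Rab21 (-0.278) and Rab31 (0.3281), by edgeR's quasi-likelihood test.

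Single cultures that stood apart from the other 4 of their group, by Dixon's ratio of the gap to the range, were found in 5 of 64 groups looked at (16 genes in 4 groups each), where chance gives about 1 in 20. Rab23 in young untreated replicate 1 was lowest at 4.90 CPM against 6.40 to 6.84 CPM (ratio 0.800). Rab39 was lowest in the same culture at 2.07 CPM against 2.80 to 3.13 CPM (ratio 0.724). Rab21 in aged untreated replicate 1 was lowest at 76.5 CPM (ratio 0.722), and Rab31 in aged untreated replicate 4 was lowest at 198 CPM (ratio 0.789). Rab8b in young LPS replicate 2 was highest (ratio 0.820).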

How the results depend on the processing

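Of 76 calls of a Rab gene in a comparison, 56 kept their direction and their side of the threshold under all alternatives that tested the gene, and 20 did not. With library sizes alone 2 changed sign, both for LPS in young cultures: Rab2a (-0.078) and Rab7 (-0.022), where the median of all genes itself moved by -0.22. The count for aged against young untreated cultures was 4 in place of 8 with no filter on low counts, a setting that adjusts over more genes, and 3 to 8 when 1 library was left out. Leaving out 1 library gave 26 to 28 Rab DEGs for LPS in young and 24 to 26 in aged cultures, 11 to 15 for aged against young under LPS, and 3 each time for the difference of the responses. With the replicate block the counts were 9 and 28 (aged against young untreated, LPS in young), 26 (LPS in aged), 18 (aged against young under LPS) and 3, and all 76 calls were kept. The shares of all genes called with the block were, in the same order, 17.2%, 67.7%, 58.5%, 33.4% and 9.03%. DESeq2 gave 9, 28, 24, 15 and 3, where 12.6%, 45.4%, 39.8%, 26.2% and 9.79% of all genes were called. At 3 counts or fewer in every library, 10 of the 59 genes could not be compared at this depth.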

Other observations

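All 59 Rab genes together took a median of 0.346% of counts in young untreated (range 0.343% to 0.354%), 0.328% in aged untreated (0.321% to 0.341%), 0.344% in young LPS (0.335% to 0.362%) and 0.328% in aged LPS cultures (0.320% to 0.339%).

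Rab4a and its paralogue Rab4b, both of recycling endosomes, had a TPM ratio of 0.254 to 0.335 in young LPS and 0.377 to 0.448 in aged LPS cultures, without overlap, whereas the untreated ranges of 0.330 to 0.437 and 0.374 to 0.487 overlap. Rab4b shares exonic bases with Gm21983, so its counts are uncertain.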
